A study of Drosophila melanogaster with 4 samples.

Results

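The 3RHet scaffold carried 804 of the 6065 peaks that the deposited list gives for Atonal in the eye imaginal disc. 3RHet is the name that Release 5 of the Drosophila melanogaster genome gives to mapped heterochromatin of the right arm of chromosome 3, and its members here were taken by sequence name alone, every peak listed on it being kept. 3LHet, the corresponding scaffold of the left arm, had 836 peaks, and the euchromatic arm 3R had 513. Atonal was precipitated through a green fluorescent protein fused to it by knock-in (line ato:GFP, third-instar eye discs, no treatment, animals kept at 25 degrees Celsius). The labels describe 800 discs dissected from 400 larvae, with 10% of the sonicated chromatin set aside as input and the remainder incubated with anti-GFP antibodies, and they give 2 ChIP and 2 input libraries. All libraries carry the ato:GFP fusion, so the list has no precipitation from discs without it. The list holds 1 set of values per peak and none per library, so these values have no replicate error, and the sequencing depth behind them is unknown.

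Atonal is a proneural basic helix-loop-helix factor that binds E-box sequences together with Daughterless and selects the founder photoreceptors of the developing compound eye. Heterochromatin around the centromeres is packed with transposon remnants and simple satellites, is marked by methylated histone H3 lysine 9 and bound by HP1, and holds few genes. Many of its sequences occur in several copies, so that short reads from them can align at more than 1 place. How the authors treated such reads is not given in the sources used here.

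Peaks lay far more densely on 3RHet than on the arm, and its difference from the left-arm scaffold was not detectable. The 804 peaks spanned 2.5 Mb, taken to the end of the last peak, or 321 peaks per Mb, against 327 per Mb on 3LHet and 18.5 per Mb on 3R. The ratio of 3RHet to 3LHet was 0.981 (95% interval 0.890 to 1.08, two-sided exact binomial test, adjusted p = 0.711), an interval that spans equality. The ratio to the 3R arm was 17.4 (15.6 to 19.5, with a p below the smallest number the software holds). That ratio was 31.7 (26.5 to 38.1) for peaks at or above the median score of the whole list and 5.50 (4.49 to 6.71) for peaks whose control level was less than 1.5 times the lowest in the list. A control level is the background each peak was compared with, solved here from its fold and p-value. Such low control levels were found at 150 of the 804 3RHet peaks (18.7%), at 14.8% on 3LHet and at 59.1% on 3R, against 25.9% of the whole list. The limit on control level removes peaks but no length, and the length of each sequence at a given control level is not known. The score follows −log10 q, which at equal fold grows with the levels, so the limit on score favours peaks with high control. Median control was 2.30 times the lowest on 3RHet and 1.28 times on 3R. Peaks covered 121 kb or 4.83% of 3RHet, 4.81% of 3LHet and 0.283% of 3R. These tests take peaks as units and cover counting error only. Neighbouring peaks are not independent, so the intervals are too narrow.

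Every complete 100 kb bin of the scaffold held peaks, in uneven numbers. Over the 25 complete bins the count ran from 16 to 51, with a median of 33 and a mean of 32.0 ± 9.45 (SD over bins). The fullest was the 11th bin, 1000001 to 1100000, with 51 peaks (95% Poisson interval 38.0 to 67.1). The 8th bin, 700001 to 800000, followed with 45 peaks, and 3 bins starting at 800001, 1100001 and 1700001 had 43 each. The emptiest complete bin, 400001 to 500000, held 16 peaks (9.15 to 26.0), and 21 and 18 lay in the bins starting at 900001 and 2400001. The variance of the counts was 2.79 times their mean on 3RHet, 4.83 times on 3LHet, whose bins ran from 13 to 65, and 4.44 times on 3R, where 99 of 277 bins held no peak. Counts independent of one another at a constant rate would give a value near 1. The bin at 700001 was the one most covered, with 11602 bp inside peaks, against 7230 bp in the bin with the most peaks.

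**Figure D1:**
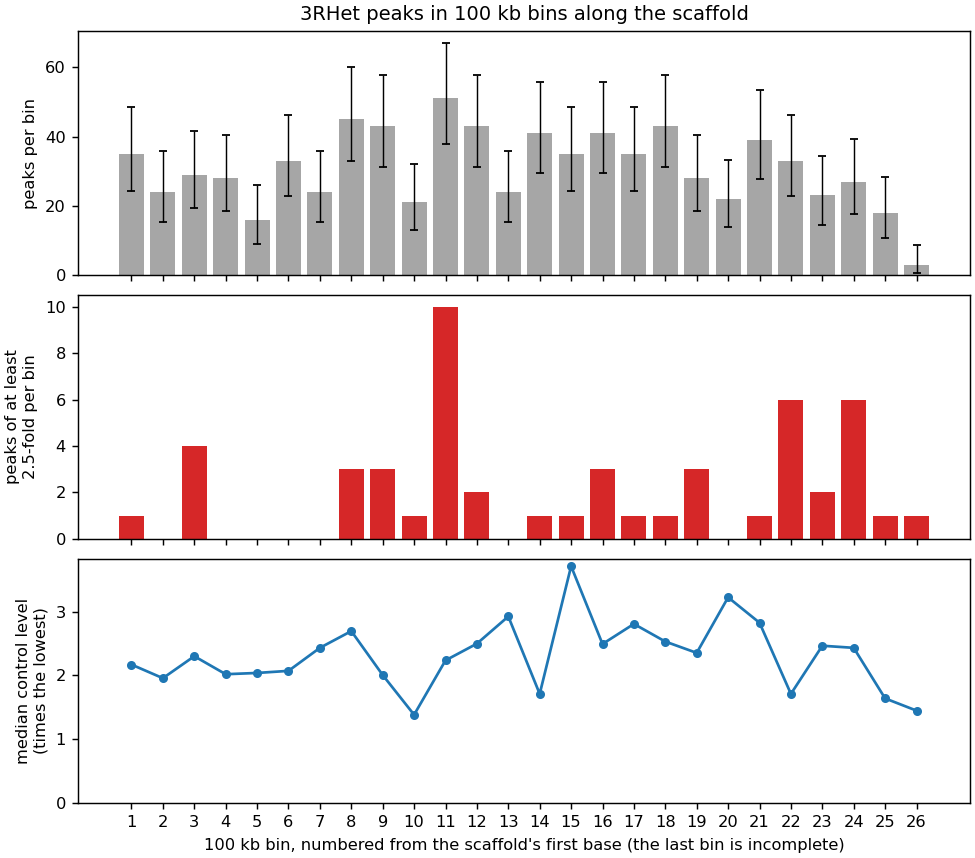
Number of 3RHet peaks (top, bars with 95% Poisson intervals that cover counting error only), number of peaks of at least 2.5-fold (middle) and median control level in multiples of the lowest in the list (bottom) in each 100 kb bin, numbered from the first base of the scaffold; the last bin is incomplete. The 11th bin had the most peaks (51) and the most of at least 2.5-fold (10), and the 15th had the highest median control level (3.71 times the lowest).

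Long stretches without a peak interrupted this pattern. The longest ran from 2371277 to 2458058 (86.8 kb) and the next from 447884 to 526272 (78.4 kb), which overlapped the emptiest bin. Stretches at 315196 to 372415 (57.2 kb), 2228769 to 2267591 (38.8 kb) and 1207616 to 1242366 (34.8 kb) came after them. The 10 longest took up 430 kb or 17.2% of 3RHet, against 13.4% of 3LHet for its own 10 longest, of which the first was 52.1 kb. No sequence of this build was used here, so whether the stretches hold unknown bases or sequence to which reads do not align was not tested.

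Most peaks had a close neighbour. On 3RHet 522 peaks (64.9%) had another summit within 1000 bp, against 568 of 836 (67.9%) on 3LHet, 190 of 513 (37.0%) on 3R and 59.9% of the whole list. The difference from 3R was 27.9 percentage points (two-sided Fisher's exact test, adjusted p = 1.88e-22 over 6 shares compared), and that from 3LHet was −3.02 points (Fisher's exact test, adjusted p = 0.290). At 500 bp in place of 1000 bp the difference from 3LHet was −6.52 points (Fisher's exact test, adjusted p = 0.0257). A close neighbour is mutual, so neighbouring peaks share this call and all of these p-values are too small. 3RHet also has many more peaks per length than 3R, and a higher density brings summits closer even without grouping. How much of the difference from 3R this accounts for was not tested. The median distance between neighbouring summits was 1.11 kb on 3RHet (quartiles 0.489 and 3.21 kb), 1.06 kb on 3LHet and 13.1 kb on 3R.

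Joining peaks at most 500 bp apart gave 529 regions, 392 of them with a single peak and 18 with at least 5 peaks, which together held 121 peaks. The region with the most peaks was 1712464 to 1716907, where 11 peaks stood within 4.44 kb, where fold ranged from 1.45 to 2.25 and control from 2.17 to 4.01 times the lowest. The next was 1416879 to 1420292, with 10 peaks over 3.41 kb, fold between 1.52 and 1.74 and control from 2.92 to 4.17 times the lowest. The third was 1952432 to 1955865, with 9 peaks, fold between 1.47 and 1.80 and control from 3.02 to 4.24 times the lowest. None of these 3 clusters held a peak of 2.5-fold, and 48.3%, 50.9% and 57.1% of the bases of each, in the same order, lay inside peaks. When peaks up to 1000 bp apart were joined, the largest cluster was instead 756375 to 767858, with 18 peaks over 11.5 kb and a highest fold of 2.86.

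No single spacing between summits dominated on 3RHet. Among 3626 distances under 10 kb between any pair of 3RHet summits, the fullest bins of 20 bp were 300 to 319 bp and 800 to 819 bp, with 19 pairs each (95% Poisson interval 11.4 to 29.7), where the median of the bins around was 11 and 10.5. The bin from 160 to 179 bp held 18 pairs, where the bins around had a median of 8.5. It lies at the short end, where few smaller distances exist, and the smallest distance between neighbours was 121 bp. That bin also held 18 pairs on 3LHet (median around 10.5) and 9 on 3R (median around 2.5), where it was the fullest. Each fullest bin was picked from many, so its excess is not a test. The 19 pairs at 300 to 319 bp were spread over 15 of the 100 kb bins, with at most 2 in any of them. The most frequent exact distance occurred 4 times, and 10 distances did so. On 3LHet the fullest bins, 240 to 259, 280 to 299 and 800 to 819 bp, had 21 pairs each of 4142.

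**Figure D2:**
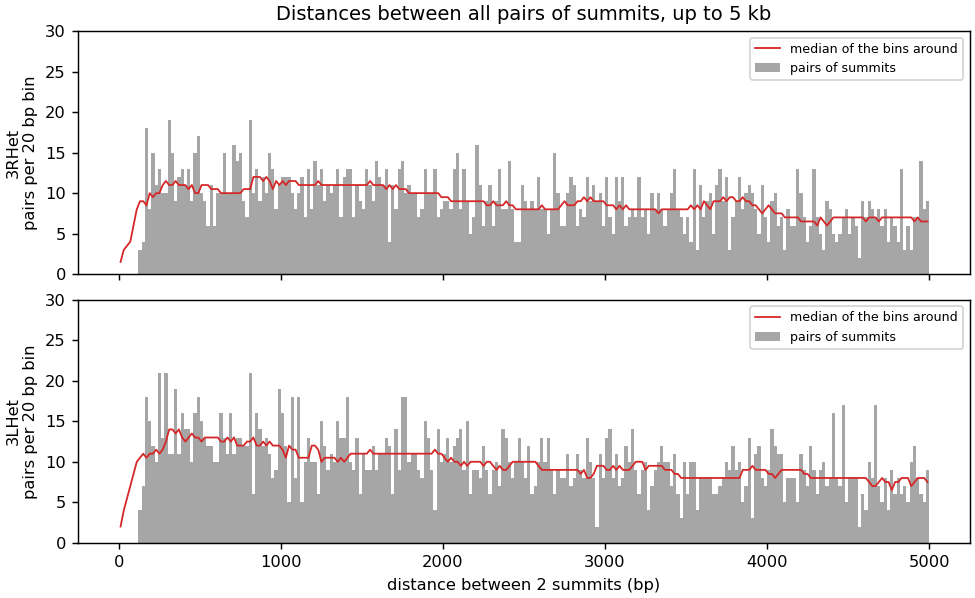
Number of pairs of summits per 20 bp of distance, up to 5 kb, on 3RHet (top) and 3LHet (bottom); the line is the median of the bins around each. The highest bars are 19 pairs on 3RHet and 21 on 3LHet.

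Enrichment was low and peaks were short, much as on the other sequences. The median fold of ChIP over control, the authors' own value for each peak, was 1.90 on 3RHet (quartiles 1.73 and 2.18), 1.87 on 3LHet and 1.94 on 3R. The median width was 117 bp (quartiles 82 and 173 bp) on 3RHet, 119 bp on 3LHet and 111 bp on 3R. The median −log10 q was 4.42 on 3RHet, 4.30 on 3LHet and 3.01 on 3R, and the median control level was 2.30 times the lowest on 3RHet, 2.37 times on 3LHet and 1.28 times on 3R. At equal fold −log10 q grows with the levels, so its larger value on the scaffolds cannot be told apart from their higher control. Peaks under 100 bp made up 316 of 804 on 3RHet (39.3%, exact binomial interval 35.9% to 42.8%), 36.5% on 3LHet, 43.3% on 3R and 37.1% of the whole list. Neither difference passed the test (Fisher's exact test, adjusted p = 0.290 for both). For peaks under 80 bp, 3RHet exceeded 3LHet by 5.89 points (Fisher's exact test, adjusted p = 0.00831), and under 150 bp the difference was −0.549 points.

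Only 7 of the 804 peaks were 3-fold or more (0.871%, exact binomial interval 0.351% to 1.79%), against 7 of 836 on 3LHet (0.837%), 9 of 513 on 3R (1.75%) and 1.43% of the whole list. The differences were 0.0333 points from 3LHet (Fisher's exact test, adjusted p = 1) and −0.884 points from 3R (Fisher's exact test, adjusted p = 0.290). With so few peaks, a share on 3RHet equal to that on 3R lies within the interval. No ChIP level in the list was large enough to give 3-fold over the control found at 311 of the 3RHet peaks (38.7%), 42.9% of those on 3LHet and 22.2% on 3R.

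Of the 7, 6 were under 100 bp wide. The strongest was 2136633 to 2136718, an 86 bp peak with a fold of 4.75, a −log10 q of 27.3 and a control level at the lowest value, and it was number 3 of the whole list by −log10 q. The second by fold was 1010808 to 1010892, 85 bp wide and 3.39-fold. Close behind was 1503204 to 1503279, 76 bp wide and 3.36-fold, with a ChIP level of 105 against a control level of 30.5. The other 4 lay between 3.01 and 3.08-fold: 213849 to 213939 (91 bp), 2131949 to 2132040 (92 bp), 842388 to 842567 (180 bp) and 2103473 to 2103551 (79 bp). Just under the limit stood 1094343 to 1094411, 69 bp wide, with a fold of 2.997, and 2333235 to 2333317, 83 bp wide, with a fold of 2.96. Ranked by −log10 q, 8 of the 10 leading 3RHet peaks were under 100 bp wide, the others measuring 101 and 180 bp. The second of these, 1810221 to 1810302, had a ChIP level of 133, close to the highest in the list, over a control level 2.56 times the lowest, and a fold of 2.92. The fifth and sixth, 756815 to 756915 (2.86-fold) and 759822 to 759909 (2.80-fold), both lay in a cluster of 7 peaks, 756375 to 759909. The last of the 10 not yet given were 2041422 to 2041490 (69 bp, 2.61-fold) and 2224581 to 2224652 (72 bp, 2.69-fold).

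Peaks of at least 2.5-fold numbered 51 on 3RHet (6.34%), 59 on 3LHet (7.06%) and 33 on 3R (6.43%), against 6.88% of the whole list. They were unevenly placed: 10 lay in the bin at 1000001, 6 in that at 2100001 and 6 in that at 2300001, while 7 of the 25 complete bins held none. The bin at 2100001 also held 3 of the 7 peaks past 3-fold and had the highest median fold of any complete bin, 2.18, with peaks of 86 bp at the median and a typical control level (median) of 1.71 times the lowest. The bins at 1400001 and 1900001, with median control levels of 3.71 and 3.22 times the lowest, had the lowest median folds, 1.70 and 1.71. Across the 25 bins median fold and median control level had a Spearman's rho of −0.408 (Pearson's r of −0.587) and, across the 804 peaks, a rho of −0.538. Control is the denominator of fold, so the measures share a term. The number of peaks per bin had a rho of 0.240 with the control level (Pearson's r of 0.167, n = 25 bins).

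On 3RHet the peaks of at least 2.5-fold were mostly short. They made up 35 of 316 peaks under 100 bp (11.1%, exact binomial interval 7.84% to 15.1%), 13 of 352 of intermediate width (3.69%) and 3 of 136 of at least 200 bp (2.21%, 0.457% to 6.31%). On 3LHet the shares under 100 bp and from 200 bp were 14.1% and 1.97%. On 3R they ran the other way, with 8 of 222 short peaks (1.57% to 6.98%) and 17 of 86 wide ones (19.8%, 12.0% to 29.8%). Wide 3RHet peaks had a median control level of 3.25 times the lowest, against 2.00 times for the short ones. The highest ChIP level in the list, 138, gives less than 2.5-fold over the first of these levels and more over the second. Short and wide peaks thus did not have equal room to reach 2.5-fold, and how much of the contrast this accounts for was not tested. Below 1.5 times the lowest control level, 3RHet had 17 of 76 short peaks (22.4%) and 2 of 8 wide ones (25.0%, 3.19% to 65.1%) past 2.5-fold, 3LHet had 22 of 57 (38.6%) and 1 of 8 (12.5%, 0.316% to 52.7%), and 3R had 7 of 154 (4.55%) and 13 of 25 (52.0%). With 8 wide peaks on each scaffold, a difference between short and wide peaks was not detectable there. At or above the median score, 3RHet had 35 of 209 short peaks (16.7%, 12.0% to 22.5%) and 3 of 97 wide ones (3.09%, 0.642% to 8.77%). After joining peaks within 500 bp, 12.6% of the short and 11.2% of the wide 3RHet regions held such a peak. Joining moves short peaks with a neighbour into wide regions by construction, so these shares do not test the contrast between short and wide peaks. The limits were chosen with the values known, and width and fold describe the same call, so no test is given.

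**Figure D3:**
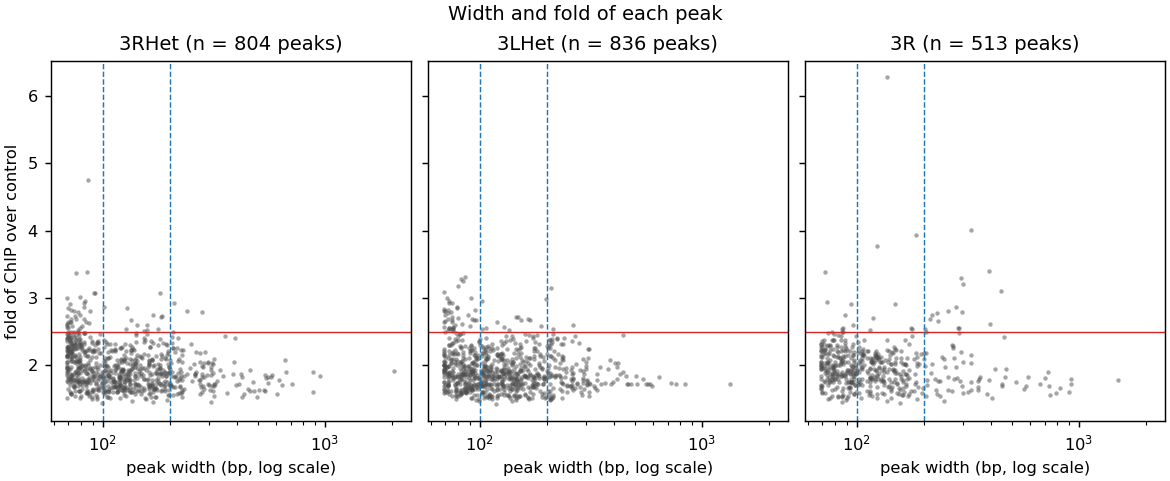
Width (log scale) and fold of every peak on 3RHet, 3LHet and 3R; the horizontal line marks 2.5-fold and the dashed lines 100 and 200 bp. On both scaffolds the points above the line gather at widths under 100 bp (35 of 51 on 3RHet and 43 of 59 on 3LHet), whereas on 3R 17 of 33 are at least 200 bp wide.

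The 35 short peaks of at least 2.5-fold measured 69 to 92 bp, with a median of 76 bp. Their ChIP levels ran from 48 to 133 and their control levels had a median of 1.51 times the lowest; 17 lay under 1.5 times and 8 at 2 times or more. They fell in 16 of the 100 kb bins, and 17 of them (48.6%) had another summit within 1000 bp, against 64.9% of all 3RHet peaks, these 35 included. With only 35 peaks that share is imprecise, and the difference was not tested. In 3RHet peaks under 100 bp the summit lay at a median of 50% of the width (quartiles 40.5% and 58.8%), and in those of at least 200 bp at a median of 47.8%, with a wider spread (quartiles 24.8% and 77.5%). One run stood apart, singled out after its values were seen: 4 consecutive listed peaks between 2131949 and 2136718, within 4.77 kb, were all short and of at least 2.5-fold. Their folds in order were 3.08, 2.85, 2.55 and 4.75, and their control levels 1.00, 1.08, 2.07 and 1.00 times the lowest. The other runs of consecutive peaks of this kind on 3RHet, 2 in number, had 2 peaks each.

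The 5 widest 3RHet peaks had folds of 1.59 to 1.91 at control levels of 3.74 to 4.53 times the lowest. The widest, 776348 to 778396, measured 2049 bp with a fold of 1.91. It was followed by 640896 to 641848 (953 bp, 1.85-fold), 1954282 to 1955167 (886 bp, 1.59-fold), 1171318 to 1172196 (879 bp, 1.91-fold) and 758352 to 759061 (710 bp, 1.73-fold). The first and the last lay in the bin at 700001. In the same order the ChIP levels of these peaks were 135, 138, 119, 126 and 138, where 138 was the highest in the whole list. The folds of the second and the last could therefore be no larger over their control levels. The others lay below that limit, and 3RHet peaks of at least 200 bp had a median ChIP level of 102.5. How far the limit bears on low fold at these widths was not tested.

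**Figure D4:**
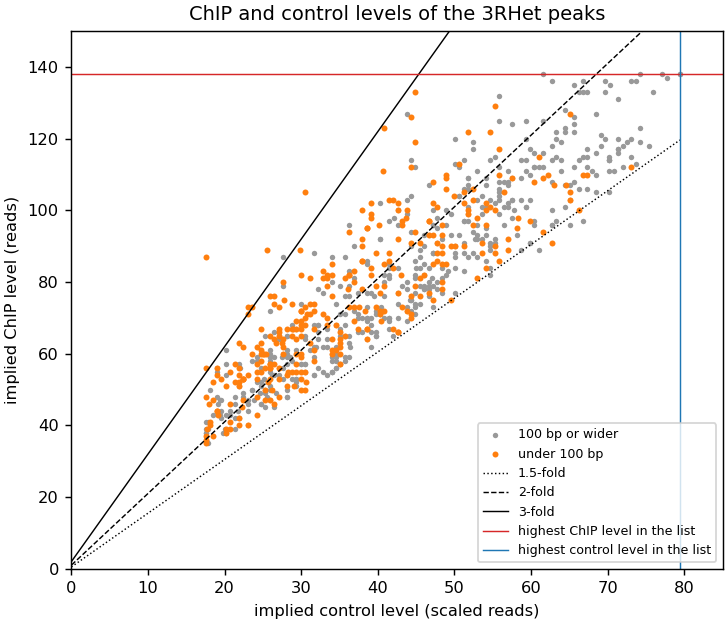
Implied ChIP level (reads) against implied control level (reads scaled to the ChIP) for each of the 804 3RHet peaks, with those under 100 bp in orange. Lines mark 1.5-, 2- and 3-fold and the highest ChIP (138) and control (79.4) levels of the whole list; only 7 peaks lie on or above the 3-fold line, and 2 lie where the highest levels meet.

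The levels on both sides of the comparison stopped at a common limit, which several 3RHet peaks reached. The highest ChIP level in the whole list was 138, which is 2 times the shortest listed width of 69 bp: a window of that width holds no more reads if each strand and position counts once. Control levels came in whole steps of 0.576 at 5170 of the 6065 peaks, and the highest, 79.4, was 138 such steps. The search for the step started from that number at the highest level, so only the match at the other peaks is a result. A peak with both levels at the limit has a fold of 1.73 by construction. On 3RHet, 758352 to 759061 and 2308212 to 2308507 were at both limits, each with a fold of 1.73. A ChIP level of at least 130 was found at 21 3RHet peaks (2.61%), at 3.59% on 3LHet and 0.780% on 3R, against 4.06% of the whole list. Of the 804 control levels, 712 (88.6%) fell on the steps of a 69 bp window. A further 61 (7.59%) fell on those of a 1 kb window, 20 (2.49%) on those of a 10 kb window, and 11 (1.37%) were at the lowest value; on 3R 15.6% were at the lowest.

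A −log10 q of at least 10 was reached by 52 3RHet peaks (6.47%), by 7.18% on 3LHet and 2.92% on 3R, against 5.84% of the whole list. Of the 52, 32 were under 100 bp wide, 16 were of intermediate width and 4 at least 200 bp, and on 3R 4 of 15 were under 100 bp and 8 at least 200 bp.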

How the data were processed

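The authors deposited 1 headerless peak list for 2 ChIP and 2 input libraries. The submitters' processing notes name Bowtie2 2.2.1; the sources used here do not give the peak caller, the build or any pooling. Columns were read by the narrowPeak layout. The authors' fold ratio is ChIP over control, and their −log10 p and −log10 q values give each deposited peak's significance. The deposited score is 10 times −log10 q without its decimals. Sequence names are those of Release 5, the gene table used here is of Release 6, and no coordinate was converted, so no gene or sequence is assigned.

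ChIP and control levels were solved from fold and p under the MACS2 formulas, fold being (ChIP + 1)/(control + 1) and p an upper Poisson tail. All 6065 peaks were solved within 1e-04 on the −log10 p scale. Control levels were matched to whole steps of a 69 bp, 1 kb or 10 kb window. The step was started at the highest control level over the highest ChIP level and then refined on the levels that matched. The tolerance, from the rounding of fold, spanned 0.0915%, 0.881% and 6.81% of each step, and every peak matched 1 of them or the lowest level. The solver and the tests were checked on simulated data, which included a peak with both levels at the limit.

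Densities were compared by exact binomial tests, with Benjamini-Hochberg adjustment over 2, and shares by Fisher's exact tests, adjusted over 6, all two-sided; intervals are 95% Clopper-Pearson or Poisson (SciPy 1.17.1, statsmodels 0.14.6). They treat peaks as units and cover counting error only. Starts count from 1, bins go by summit, and lengths run to the last peak. Named peaks were the 10 with the highest −log10 q, those of at least 3-fold and the 5 widest, with the 3 fullest bins (ties kept), the 3 largest clusters and the 5 longest gaps. The members and limits were chosen with earlier results of these data known.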

Additional observations from a re-analysis of the deposited data

How the results depend on the processing

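Direction and side of the threshold were kept in 24 of 36 tested alternatives; differences below are 3RHet minus the other sequence, in percentage points. Every comparison that turned had missed the threshold before and missed it after. The density ratio to 3LHet turned to 1.23 under 1.5 times the lowest control level and to 1.04 after merging within 500 bp. The share under 100 bp was 5.89 points above 3LHet with a limit of 80 bp, past the threshold, and turned to −0.549 with 150 bp. Against 3R it turned to 5.49 at or above the median score and to 3.41 with 80 bp. The share of 3-fold peaks turned against 3LHet, to −1.51 at low control, −0.0307 after merging and −0.714 at 2.5-fold. Against 3R it was −3.92 at or above the median score, past the threshold, and turned to 0.363 at low control. Neighbours within 500 bp gave −6.52 against 3LHet, past the threshold, but neighbouring peaks share this call, so its p-value is too small. The median score raised the median fold to 2.08 and −log10 q to 6.04, since it limits −log10 q itself. Otherwise the cause was not tested. Of 11 alternatives without a test, 9 stayed within the reported value's 95% interval or, for the number of clusters, within 1.5 times, and these medians were the other two. The settings for short and wide peaks of 2.5-fold were chosen after seeing the data and are not among the 11; 4 of their 6 values lay outside the interval. No paired analysis was possible because no peak has separate values for the libraries, which also prevented leaving out a replicate. Depth is unknown.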

Other observations

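One run of 3 summits on 3RHet had exactly the spacing of another. Summits at 758694 and 1420200 were each followed by another after 826 bp and 1 more after a further 343 bp. The peaks differed in strength: the first run had folds of 1.73, 2.06 and 2.80 at control levels of 4.53, 3.15 and 2.53 times the lowest, and the second had 1.57, 1.56 and 1.61 at 4.01, 4.04 and 4.01 times. Among 106030 pairs of such runs on 3RHet, with spacings under 3000 bp, this was the only identical pair, and 19 pairs agreed within 8 bp in both spacings. On 3LHet 15 of 117855 pairs agreed within 8 bp and 0 were identical. The search was made after the data were seen, has no test, and whether the stretches share sequence was not tested.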
